A study of Homo sapiens with 11 samples.

Results

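IMR32 is a human neuroblastoma cell line that carries extra copies of MYCN, and the earliest time after delivery of a hairpin against MYCN was examined here across all genes on expression arrays. The comparison used 7 of the 11 arrays of the series: the 2 arrays labelled shMYCN at 24 hours (A and B), and 5 reference arrays. The references were 2 arrays of cells without virus at 0 hours and 1 array of cells with the control virus SHC002 at each of 24, 48 and 72 hours. All 7 came from cells grown in DMEM with 10% fetal calf serum; the virus particles were lentiviral, and the hairpin was TRCN0000020696, titled shMYCN#3. No second hairpin against MYCN was analysed here, so a change on the shMYCN arrays belongs to this 1 virus. The reference group mixed times and virus states, and nothing in the labels says that arrays of 1 group are separate cultures. The p-values therefore measure only how these arrays vary, which may be technical. Of 19775 genes with a probe set named by 1 symbol, the 11865 above a filter on dim signals were tested.

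MYCN encodes a transcription factor that pairs with MAX and binds E-box DNA (CACGTG), and its amplification marks aggressive neuroblastoma. MYC family proteins are known to raise genes of ribosome building, nucleotide synthesis and cell division, and to hold down cell cycle inhibitors and differentiation genes. A short hairpin RNA is processed by the cell's own RNA interference machinery into a guide that lowers matching mRNAs.

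Signals are linear intensities that the authors scaled, with a mean of 100 over the middle 96% of probe sets of each array, and a change in total RNA per cell would not show in them. Folds were taken on log2(signal + 16), which understates the change of dim genes, and a negative value means lower at 24 hours. The errors given with log2 fold changes are standard errors from limma, and adjusted p-values are Benjamini-Hochberg values over the 11865 genes.

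The 7 arrays resembled each other in quality. Median signals of all 11 arrays lay between 14.9 and 16.7, and the GAPDH ratio of 3' to 5' control probe sets between 0.97 and 1.07. The SD of the log2 difference between the 2 arrays at 24 hours was 0.181 over tested genes, against 0.172 to 0.23 over the 10 pairs of references. Between a 24 hour array and a reference it was 0.225 to 0.254. Neuroblastoma markers were present on all 7 arrays. Their summed signals were 8227.8 to 9569.4 on the references and 9388.7 and 8934.9 at 24 hours. TH, the enzyme that starts catecholamine synthesis, was the exception, with a mean signal of 7.73 that lay under the dim filter. Of the 10 neuroblastoma markers tested, 0 were past the threshold, against 5.5% of all genes. Leukocyte markers were all under the filter (5 of 5 on the array), with sums of 8.8 to 28.0 on the references and 23.7 and 23.8 at 24 hours.

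At 24 hours, 652 of 11865 genes (5.5%) differed from the references at an adjusted p under 0.05. Of these, 257 were higher (2.17% of genes tested) and 395 were lower (3.33%). In bulk RNA a change in the share of some cells and a change within each cell cannot be told apart. The falls reached further than the rises. By at least 1.5-fold, 107 genes were lower and 11 higher, and by at least 2-fold, 15 were lower and 1 was higher. The median log2 fold change was -0.40 over the called falls, 0.35 over the called rises and 0.03 over all genes tested. Under quantile normalization 106 genes were lower and 8 higher by at least 1.5-fold, and under median scaling 110 and 10.

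Counted without the test, more genes lay above the references than below. Both 24 hour arrays lay outside the range of the 5 references for 3050 genes (25.7%), of which 1915 were above and 1135 below. All 652 called genes were among them. At an unadjusted p under 0.05 there were 2437 genes. The count of called genes depended on the arrays: without array A it was 235 (40 higher, 195 lower) and without array B it was 228 (30 higher, 198 lower), where 1 array stood for the group and was assumed to vary like the references.

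**Figure D1:**
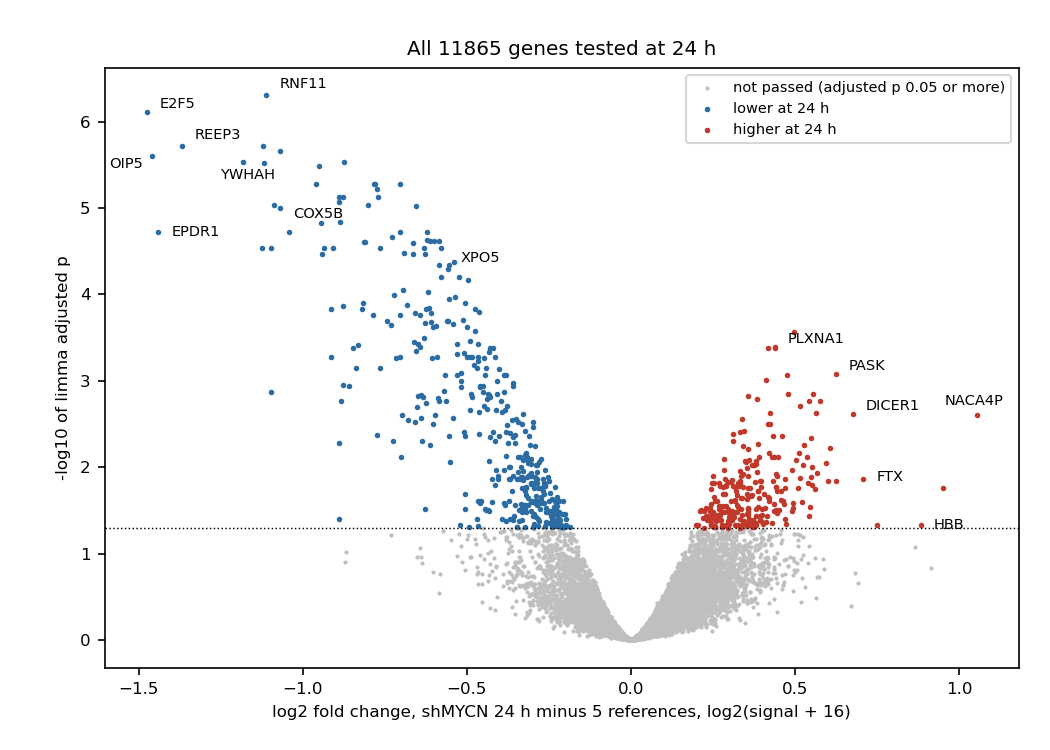
Each point is 1 of 11865 genes, with the log2 fold change of the 2 arrays labelled shMYCN at 24 hours minus the 5 references on the x axis and -log10 of the limma adjusted p on the y axis (dotted line, 0.05). The 395 called falls reach a log2 fold change of -1.48 (E2F5), and of the 257 called rises only NACA4P passes 1.

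The target of the hairpin was covered by 10 probe sets, 4 of them above the filter on dim signals, and these did not move as one. When all 41091 probe sets with 1 symbol were fitted singly, 747 (1.82%) were called, 1 of these 10 among them. That probe set, 211377_x_at, read 227.6 and 223.7 without virus, 216.2, 290.2 and 224.9 with the control virus at 24, 48 and 72 hours, and 130.2 and 162.4 at 24 hours of the MYCN hairpin. Both 24 hour arrays were below every reference, with a log2 fold change of -0.64 ± 0.12 (adjusted p = 0.0301). The call was lost in 6 of the 7 fits that left out 1 array (adjusted p 0.0504 to 0.282) and kept without the control virus array of 48 hours (adjusted p = 0.0194).

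The probe set 209756_s_at read 370.8 and 354.8 without virus, 406.4, 520.1 and 370.4 with the control virus, and 254.2 and 292.3 at 24 hours. Its 24 hour arrays were also below every reference, but its log2 fold change of -0.53 ± 0.13 did not pass among all probe sets (adjusted p = 0.0949). It passed when only probe sets above the dim filter were fitted (adjusted p = 0.024) and without the control virus array of 48 hours (adjusted p = 0.0363). The brightest MYCN probe set, 209757_s_at, read 4507.4 to 5389.7 on the references and 5488.1 and 4567.4 at 24 hours. Its groups overlapped, and the 95% interval of its log2 fold change, -0.01 ± 0.09, ran from -0.23 to 0.20 (adjusted p = 0.975). The dim 234376_at gave -0.35 ± 0.20 (adjusted p = 0.53), again with overlap. Since the brightest probe set of the target did not separate the groups, the arrays are called by their labels throughout, and every direction below is that of the arrays labelled shMYCN.

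The 2 lower probe sets were lowest at 24 hours and not later. On 209756_s_at the arrays labelled shMYCN read 319.4 and 624.2 at 48 hours and 650.7 and 795.6 at 72 hours, the last 2 above all 5 references. How these probe sets lie on the MYCN transcript was not analysed here.

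**Figure D2:**
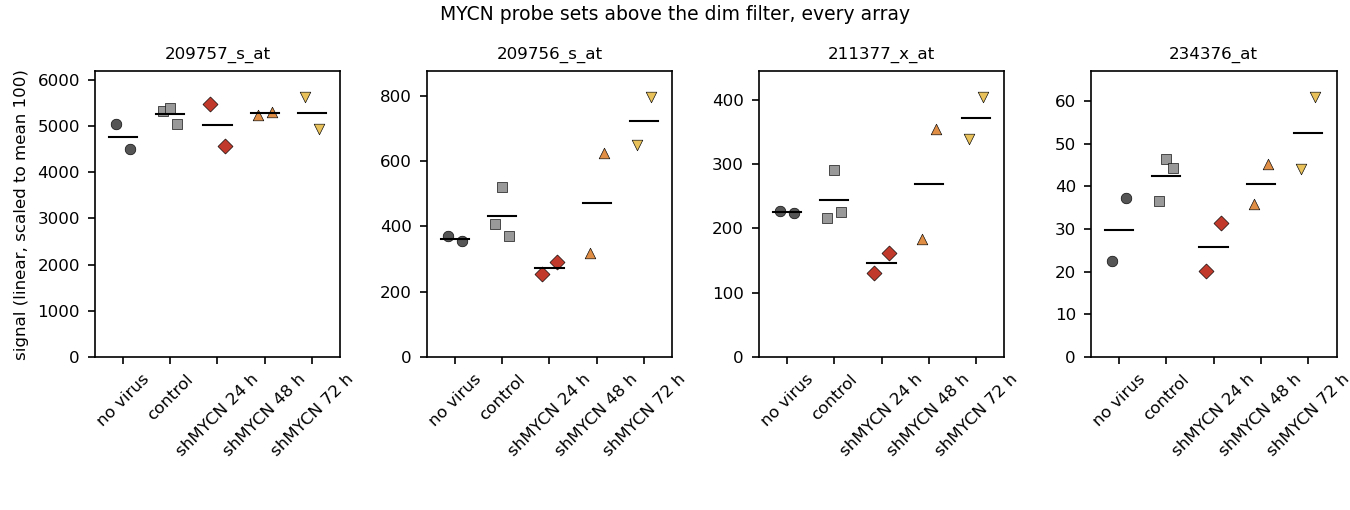
The linear signal of the 4 MYCN probe sets above the dim filter is shown on each of the 11 arrays (1 point an array, black lines are group means). On 209756_s_at and 211377_x_at the 24 hour arrays, at 254.2 and 292.3 and at 130.2 and 162.4, lie below all 5 references, while on 209757_s_at the groups overlap.

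No partner or relative of MYCN passed the test. Of 11 MYC network genes tested, 0 were called, with a median log2 fold change of -0.01. Over all genes 5.5% were called, so 0 in a list this short is near the general share. MAX, the obligate partner, read 706.9 to 770.8 on the references and 804.8 and 802.5 at 24 hours, a log2 fold change of 0.09 ± 0.05 (adjusted p = 0.351). Its groups did not overlap, and neither did those of MXD1 and ZBTB17, as was so for 25.7% of all genes. The MAX-binding antagonist MXD1 gave 0.35 ± 0.11 (adjusted p = 0.0877), and ZBTB17, known as MIZ1, gave -0.25 ± 0.09 (adjusted p = 0.135). For MXD3 the value was 0.28 ± 0.15, and for the remaining network genes (MYCNOS, MLX, MYCL, MNT, MLXIP, MXI1 and MYCN itself) it lay between -0.09 and 0.08.

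The 15 largest falls, chosen by their size among called genes, came from genes of varied function. They ran from -1.48 (E2F5) to -1.04 (MTAP) on the log2 scale. E2F5, a repressive E2F factor that works with pocket proteins, read 273.9 and 276.5 without virus, 275.6, 269.6 and 296.7 with the control virus at 24, 48 and 72 hours, and 83.3 and 96.7 at 24 hours of the MYCN hairpin. The 24 hour arrays lay far below a tight set of references, 2.78-fold lower, with a log2 fold change of -1.48 ± 0.07 (adjusted p = 7.77e-07).

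OIP5, a protein of the complex that loads the centromere histone, read 189.9 and 223.8 without virus, 190.5, 208.8 and 220.2 with the control virus, and 68.6 and 61.1 at 24 hours. It fell by 1.46 ± 0.09 on the log2 scale (adjusted p = 2.5e-06), and no reference came near the 24 hour arrays. The secreted or lysosomal protein EPDR1 read 209.4 to 249.5 on the references and 58.5 and 90.1 at 24 hours, the widest gap between A and B on the log2 scale among the leading falls, at -1.44 ± 0.12 (adjusted p = 1.9e-05). REEP3, which shapes and positions the endoplasmic reticulum, read 437.6 and 422.2, then 451.3, 437.9 and 491.4, and 179.2 and 148.9 at 24 hours, a log2 fold change of -1.37 ± 0.08 (adjusted p = 1.91e-06). Its other probe set also passed, at -1.01.

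Signalling and ubiquitin genes stood among the leading falls. RAP1A, a small GTPase of the RAS family, read 1292.0 and 1253.9 without virus, 1303.5, 1103.9 and 1304.2 with the control virus, and 591.4 and 542.7 at 24 hours. The fall was 1.12 ± 0.07 on the log2 scale (adjusted p = 3.01e-06), and its second probe set above the filter read -0.52, which did not pass. RNF11, a RING finger ubiquitin ligase, had the smallest adjusted p of all genes, 4.9e-07. Its references lay between 776.7 and 816.9 and its 24 hour arrays at 357.7 and 363.1, a log2 fold change of -1.11 ± 0.05. YWHAH, a 14-3-3 adaptor protein, read 447.9 to 532.0 on the references and 196.3 and 215.4 at 24 hours (-1.18 ± 0.07, adjusted p = 2.9e-06), and its other 2 probe sets, both dim or near the filter, read 0.05 and 0.06.

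Genes of mitochondria and of RNA handling followed. COX5B, a subunit of cytochrome c oxidase, read 1869.5 and 1920.7 without virus, 1951.5, 1692.9 and 1565.8 with the control virus, and 870.1 and 823.0 at 24 hours. It fell by 1.07 ± 0.08 on the log2 scale (adjusted p = 1e-05), and its other 3 probe sets read -1.14, -1.24 and -0.56, of which the first 2 passed. MTLN, a micropeptide of the inner mitochondrial membrane, read 124.9 to 159.8 on the references and 56.0 and 63.1 at 24 hours (-1.10 ± 0.10, adjusted p = 2.93e-05). THOC7, of the complex that couples transcription to mRNA export, read 599.0 to 685.3 against 299.1 and 300.8 (-1.07 ± 0.06, adjusted p = 2.21e-06).

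The RNA-binding protein MEX3D had the references widest apart on the log2 scale among the leading falls, 312.0 and 256.5 without virus and 234.0, 393.1 and 364.5 with the control virus, against 134.1 and 135.2 at 24 hours. The groups did not overlap (-1.10 ± 0.16, adjusted p = 0.00133), but against the control virus array of 24 hours alone the value was -0.73 and did not pass (adjusted p = 0.103).

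The rest of the 15 were the co-chaperone SGTB, the membrane protein SMCO4, the integrin ITGA4 and the methionine salvage enzyme MTAP. SGTB read 210.8 to 255.0 on the references and 85.0 and 112.7 at 24 hours (-1.12 ± 0.10). SMCO4 read 348.0 to 391.5 against 158.5 and 159.9 (-1.12 ± 0.06). For ITGA4 the references lay at 262.8 to 300.9 and the 24 hour arrays at 111.7 and 134.9 (-1.09 ± 0.08).

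All 4 probe sets of ITGA4 passed, the other 3 at -1.05, -0.83 and -0.91. MTAP did not have this agreement: the probe set that named it fell by 1.04 ± 0.09 on the log2 scale, from 164.3 to 191.1 on the references to 73.7 and 81.8, while its other 5 read between -0.15 and 0.06. With all probe sets of a gene averaged, 12 of the 15 falls remained called, and MTAP, YWHAH and MEX3D did not. E2F5 then gave -0.88, SGTB -0.71 and RAP1A -0.40, all still called.

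All 15 falls were also called against the 2 no virus arrays alone (where 1.74% of genes were called), and 14 against the control virus array of 24 hours alone (0.708% called). These are not separate support, as they use the same 24 hour arrays. Between the control virus array of 24 hours and the no virus arrays the 15 genes differed by -0.26 to 0.09 on the log2 scale, which is small beside their falls.

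Later arrays of the same hairpin, set against the same 5 references, read lower still for most. At 48 hours the 15 genes lay between -2.32 (REEP3) and -1.14 (SGTB), and at 72 hours between -2.38 (OIP5) and -1.04 (SGTB). OIP5 read 55.6 and 45.3 at 48 hours and 28.8 and 24.8 at 72 hours, so its signals at 24 hours were above those that followed. SGTB differed, with 103.8 and 89.6, then 100.8 and 108.0, within the spread of its 24 hour arrays, and E2F5 at 48 hours (99.1 and 95.3) was at its 24 hour level.

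**Figure D3:**
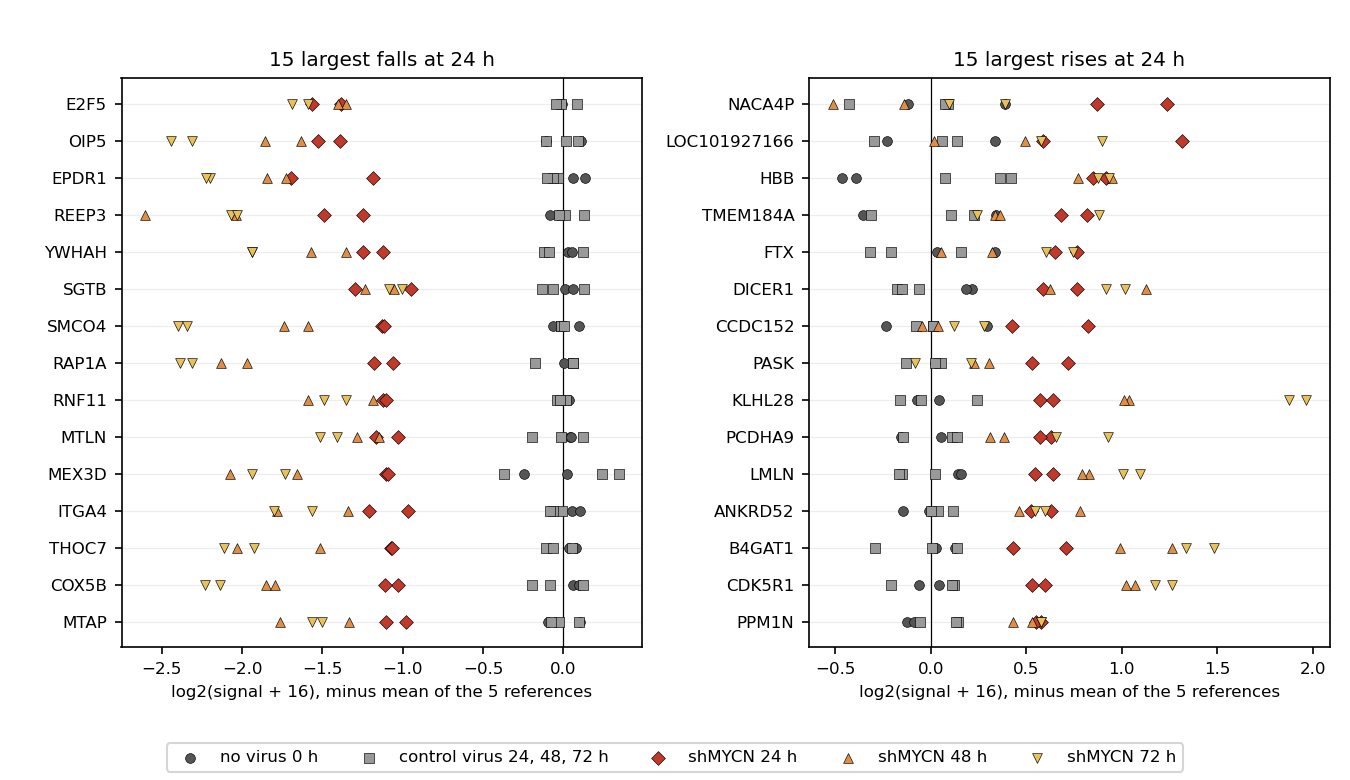
For the 15 largest falls (left) and rises (right) at 24 hours, log2(signal + 16) minus the mean of the 5 references is plotted for each of the 11 arrays (1 point an array). All 15 falls have both 24 hour arrays left of every reference and reach a log2 fold change between -2.38 and -1.04 at 72 hours, while the rises lie closer to their references and NACA4P is back among them at 48 hours.

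The promoters of called genes were searched for the E-box that MYC proteins bind, in the 250 bases before the RefSeq gene start (GRCh38.p14), where 331 of the 395 falls and 195 of the 257 rises had an entry. CACGTG, which reads the same on both strands, was in 12.4% of the falls, 10.8% of the rises and 9.38% of all 9698 tested genes with an entry, and in 6.49% of all 27305 promoters in the table. The variant CACGCG, on either strand, was in 17.8% of falls and 15.4% of rises, against 16.2% of tested genes and 9.62% of all promoters. The E2F sites TTTCGCGC and TTTGGCGC, on either strand, were in 1.81% of falls, 0 of 195 rises and 1.72% of tested genes (0.996% of all promoters). Whether the shares in called genes differ from those of all tested genes was not tested, and a match is a description of letters, not of binding.

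Of the 15 largest falls, 12 had a promoter entry. CACGTG was in 2 of them, SGTB and MEX3D, and an E2F site in 1, OIP5. They are shown as the leading falls that hold a motif of MYC or of the E2F factors named above, with CACGTG or the E2F site in capitals. The CACGCG variant, which SGTB holds on the opposite strand, is left in lower case. SGTB lies on chromosome 5 at chr5:65722110-65722359, MEX3D at chr19:1568326-1568575 and OIP5 at chr15:41332592-41332841, all on the minus strand and written 5′ to 3′ along the gene.
SGTB: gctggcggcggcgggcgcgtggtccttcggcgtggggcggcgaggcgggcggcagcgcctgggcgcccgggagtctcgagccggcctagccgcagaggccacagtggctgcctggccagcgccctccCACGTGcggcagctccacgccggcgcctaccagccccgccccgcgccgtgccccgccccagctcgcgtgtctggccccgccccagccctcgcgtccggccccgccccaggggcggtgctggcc
MEX3D: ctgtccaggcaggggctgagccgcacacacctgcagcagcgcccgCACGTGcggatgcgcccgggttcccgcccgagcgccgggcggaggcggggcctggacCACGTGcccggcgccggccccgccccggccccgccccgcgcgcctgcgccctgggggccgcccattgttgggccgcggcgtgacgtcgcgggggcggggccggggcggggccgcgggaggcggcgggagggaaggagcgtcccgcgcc
OIP5: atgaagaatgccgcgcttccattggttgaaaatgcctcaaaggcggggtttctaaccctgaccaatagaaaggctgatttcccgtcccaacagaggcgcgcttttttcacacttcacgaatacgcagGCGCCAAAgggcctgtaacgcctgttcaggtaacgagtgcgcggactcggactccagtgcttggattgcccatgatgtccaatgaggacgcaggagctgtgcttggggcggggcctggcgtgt

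The E-box of SGTB begins 123 bases before the gene start, those of MEX3D 205 and 148 bases before it, and the E2F site of OIP5 123 bases before it. Their log2 fold changes at 24 hours, given above, were -1.12, -1.10 and -1.46. The leading falls that were searched and held no such motif ran from -1.44 (EPDR1) to -1.04 (MTAP). E2F5, REEP3 and THOC7 had no promoter entry and were not searched.

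The 15 largest rises were smaller, from 0.56 (PPM1N) to 1.05 (NACA4P), and less steady. NACA4P, a transcribed pseudogene related to the gene NACA, read 2366.4 and 1653.5 without virus. It read 1914.6, 1336.2 and 1893.8 with the control virus, and 4270.4 and 3303.9 at 24 hours of the MYCN hairpin. Both 24 hour arrays were above all references (1.05 ± 0.17, adjusted p = 0.00249). At 48 hours the signals were 1634.3 and 1256.0, within or below the reference range. Its probe set is of a kind that can bind related sequences, so the transcript cannot be told apart from copies of NACA.

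DICER1, which cuts hairpin precursors into small RNAs, read 601.6 and 588.1 without virus, 454.3, 493.9 and 463.2 with the control virus, and 784.8 and 888.5 at 24 hours. The 24 hour arrays were highest (0.68 ± 0.11, adjusted p = 0.00242), and of its other probe sets 1 passed, at 0.51. The references themselves differed, with the control virus arrays below the no virus arrays, and the rise was 0.48 against no virus (adjusted p = 0.138) and 0.86 against the control virus array of 24 hours (adjusted p = 0.0429).

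Among the leading rises, HBB, a haemoglobin chain, had the largest difference between the control virus array of 24 hours and no virus. It read 9.5 and 8.2 without virus, 28.8, 19.2 and 27.0 with the control virus and 47.1 and 44.2 at 24 hours. The control virus array of 24 hours was already 0.85 above no virus on the log2 scale, the rise over all references was 0.88 ± 0.23 (adjusted p = 0.046), and against that control array alone it was 0.46 and did not pass (adjusted p = 0.316). Its other 3 probe sets read -0.28, -0.14 and -0.25. The last of these had a mean signal of 18.64 on the references and 12.3 at 24 hours. The reference mean of the probe set used was 18.54. That probe set was chosen as the brightest over 11 arrays, among them those labelled shMYCN, where its signal was higher. The call of HBB is thus not separate from that choice.

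Neuronal and signalling genes were among the remaining rises. CDK5R1, the neuronal activator of the kinase CDK5, read 203.0 to 260.1 on the references and 350.1 and 367.1 at 24 hours (0.56 ± 0.09, adjusted p = 0.00236). At 72 hours it read 593.4 and 556.7. B4GAT1, which extends the sugar chain of dystroglycan, read 173.8 to 239.0 against 296.7 and 363.0 (0.57 ± 0.11, adjusted p = 0.0116). KLHL28, a Kelch family protein, read 78.4 to 109.1 against 141.3 and 148.4 (0.61 ± 0.11, adjusted p = 0.00594) and went on to 371.8 and 396.7 at 72 hours, where its log2 fold change of 1.92 was the largest of the 15.

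The kinase PASK, a nutrient sensor, read 107.3 to 123.6 on the references and 178.7 and 205.4 at 24 hours (0.62 ± 0.09, adjusted p = 0.00084). Unlike KLHL28 it was 139.9 and 111.0 at 72 hours, at or near its references, and its other 2 probe sets read -0.02 and 0.23. The long noncoding RNA gene FTX read 136.2 to 223.5 on the references and 306.2 and 281.6 at 24 hours (0.71 ± 0.14, adjusted p = 0.0137). The protocadherin PCDHA9, whose family shares much sequence and so may not be told apart, read 26.5 to 36.2 against 57.4 and 54.4 (0.60 ± 0.12, adjusted p = 0.0143).

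The others were the lncRNA LOC101927166 (0.95 ± 0.20), TMEM184A (0.75 ± 0.20), CCDC152 (0.62 ± 0.13), the peptidase LMLN (0.59 ± 0.11), the phosphatase subunit ANKRD52 (0.58 ± 0.09) and the phosphatase PPM1N (0.56 ± 0.12). LOC101927166 had the widest gap between the 24 hour arrays on the log2 scale, 111.7 and 61.0. TMEM184A was dim, at 33.8 and 29.3 against 6.1 to 19.8. Its reference mean of 12.8 was under the dim filter (about 14.8), which averaged all 11 arrays. TMEM184A was thus tested only through its higher signals on the arrays labelled shMYCN, and its call is not separate from that filter. Of the 15 rises, 7 were called against no virus alone and 3 against the control virus array of 24 hours alone. Without array A 5 of the 15 remained called and without array B 4, whereas all 15 falls remained in either case. With all probe sets of a gene averaged, 9 of 14 rises remained called, and HBB (0.05), PASK (0.28), DICER1 (0.23), PPM1N (0.27) and LOC101927166 (0.44) did not. B4GAT1 (0.32) and LMLN (0.35) were smaller but still called.

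Called genes were mostly protein coding, 94.9% of rises and 99% of falls against 94% of all tested. Long noncoding RNA genes made up 1.02% of falls and 3.5% of rises (4.37% of all tested). The median genomic span was 39.2 kb for falls and 45.5 kb for rises, against 30.6 kb for all tested genes.

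Gene lists are read against all genes tested, of which 5.5% were called, 2.17% higher and 3.33% lower. Of 26 canonical MYC-activated genes tested, 2 fell and 0 rose (7.69%), with a median log2 fold change of -0.09 (0.03 over all genes) and 23 of 26 below 0. TFB2M, which starts mitochondrial transcription, read 777.3 and 776.5 without virus, 811.6, 778.2 and 774.8 with the control virus and 521.4 and 546.9 at 24 hours (-0.54 ± 0.05, adjusted p = 4.22e-05). The groups were clearly apart on this probe set, but the mean of all its probe sets was -0.09 and did not pass. PRDX3, a mitochondrial peroxidase, read 1766.5 to 1899.6 against 1310.2 and 1316.0 (-0.47 ± 0.05, adjusted p = 0.000149).

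Ribosome biogenesis had 5 of 45 members lower and 0 higher (11.1%, against 5.5% of all genes), a median of -0.10 and 38 of 45 below 0. LYAR, a nucleolar protein, read 263.9 to 278.3 on the references and 153.4 and 160.3 at 24 hours, without overlap (-0.73 ± 0.06, adjusted p = 2.15e-05). It was the largest of the list, before GAR1 (-0.47), LTV1 (-0.44), PNO1 (-0.31) and WDR12 (-0.26), which act in small RNA-guided modification and in assembly of the ribosomal subunits. Without array A 2 of the 5 remained called and without array B 1.

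Of 36 ribosomal protein genes 0 were called, against 5.5% of all genes. Their median was -0.06 (0.03 over all genes) and 33 were below 0. Over the alternative runs this median lay between -0.18 and 0.05, so its sign depended on the processing. Translation factors and tRNA synthetases had 2 of 43 lower and 0 higher (4.65%, against 5.5% of all genes). They were EIF2S2 (-0.58 ± 0.06, adjusted p = 6.34e-05), a subunit of the factor that brings the initiator tRNA, and IARS1 (-0.28 ± 0.06). EIF2S2 read 2231.1 to 2414.9 on the references and 1586.1 and 1522.2 at 24 hours. Splicing factors also had 2 of 42 lower (4.76%), WDR77 (-0.41 ± 0.06) and SF3A3 (-0.27 ± 0.05).

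In nucleotide synthesis 4 of 30 genes were lower and 0 higher (13.3%, against 5.5% of all genes), with a median of -0.04. PRPS2, which makes the sugar donor of nucleotides, read 419.2 to 471.1 on the references and 246.5 and 290.4 at 24 hours (-0.66 ± 0.07, adjusted p = 0.000162). The other 3 were smaller: RRM2 (-0.22), GMPS (-0.22) and ADSL (-0.22). Of the 4 only PRPS2 remained called without array A.

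DNA replication and G1/S had 4 of 51 lower and 1 higher (9.8%, median -0.02), and G2/M and mitosis 5 of 46 lower and 0 higher (10.9%, median -0.02), against 5.5% of all genes. MCM3, of the replicative helicase, read 1353.5 to 1456.9 on the references and 905.0 and 932.7 at 24 hours (-0.61 ± 0.05, adjusted p = 2.43e-05). MCM5, of the same ring, gave -0.24 ± 0.06 (adjusted p = 0.0324). Cyclin gene CCNE2 read 346.0 to 394.0 against 258.6 and 280.8 (-0.44 ± 0.07), and ORC1 gave -0.31 ± 0.06, while CCND3 was higher at 0.27 ± 0.07.

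The mitotic falls were OIP5, described above, the cytokinesis genes KIF23 (-0.63 ± 0.07) and ANLN (-0.41 ± 0.07), the centromere chaperone HJURP (-0.32 ± 0.06) and the kinase PLK1 (-0.28 ± 0.06). KIF23 read 250.3 to 297.0 on the references and 170.2 and 175.2 at 24 hours. With all probe sets of KIF23 averaged its value was -0.24 and did not pass. Without array A 3 of these 5 remained called, and likewise without array B.

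The E2F family, pocket proteins and CDK inhibitors had the largest called share of the cell cycle lists, 3 of 22 lower and 2 higher (22.7% of the list against 5.5% of all genes), with a median of -0.01. Beside E2F5, TFDP1, the dimer partner of E2F factors, read 1202.8 and 1142.4 without virus, 1209.0, 1166.3 and 1242.9 with the control virus and 783.9 and 753.4 at 24 hours (-0.62 ± 0.05, adjusted p = 2.34e-05). E2F2 gave -0.32 ± 0.07 (adjusted p = 0.0209). In the other direction CDKN1C, the CDK inhibitor p57, read 130.2 and 132.8, then 136.7, 139.9 and 155.4, and 202.7 and 215.7 at 24 hours.

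No reference of CDKN1C reached the 24 hour arrays (0.54 ± 0.08, adjusted p = 0.0017), and it read 746.3 and 755.7 at 72 hours. Without array B its call was lost. The pocket protein RBL2 gave 0.44 ± 0.11 (adjusted p = 0.0309), with 352.7 and 416.4 at 24 hours and references from 252.5 to 337.1. Genes known as repressed by MYC or MYCN had 2 of 17 higher and 0 lower (median 0.09): CDKN1C and DKK3, a secreted WNT pathway modulator (0.43 ± 0.07, adjusted p = 0.00437), both lost without array B.

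**Figure D4:**
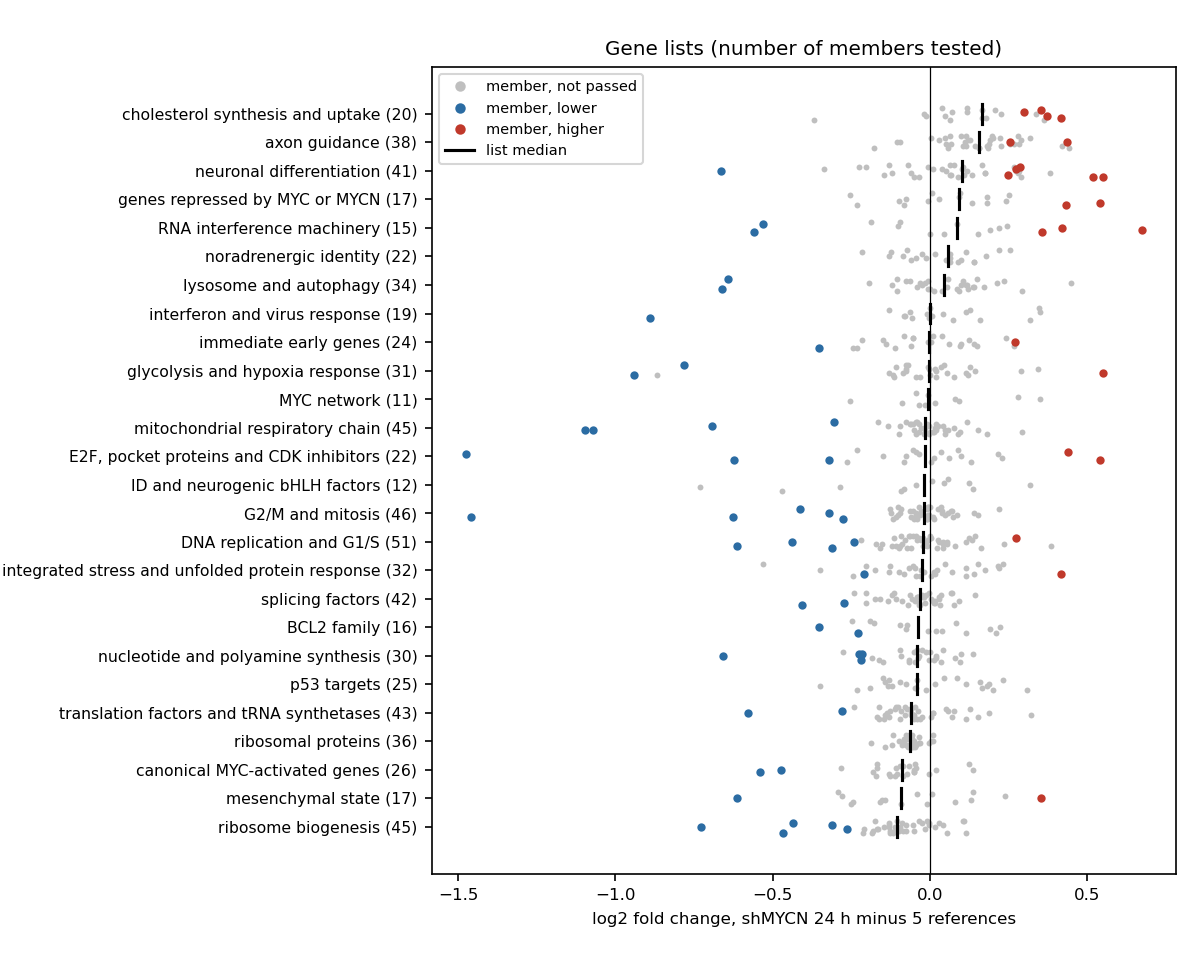
Each row is a gene list with at least 10 members tested (number in brackets), each point a member's log2 fold change at 24 hours against the 5 references, coloured where its adjusted p was under 0.05, and the black bar is the list's median. List medians lie between -0.10 (ribosome biogenesis) and 0.17 (cholesterol synthesis and uptake), while single members such as E2F5 and OIP5 lie far from their list.

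Neuronal differentiation had 5 of 41 genes higher and 1 lower (14.6%, against 5.5% of all genes), with a median of 0.10 and 29 above 0. STMN2, a tubulin-binding protein of growing axons, read 90.2 and 80.5 without virus, 81.0, 67.4 and 70.3 with the control virus and 119.4 and 122.7 at 24 hours (0.55 ± 0.11, adjusted p = 0.00989). It was above every reference, and read 319.1 and 343.7 at 48 hours and 1106.4 and 931.9 at 72 hours. The RNA-binding proteins CELF3 (0.52 ± 0.12) and ELAVL3 (0.25 ± 0.05), the dendrite protein MAP2 (0.29 ± 0.06) and the adhesion molecule L1CAM (0.27 ± 0.07) were the other rises. All 5 rises lost their call without array A and without array B.

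DPYSL2, also called CRMP2, a protein of axon growth, went the other way. Its references lay between 3009.6 and 3334.7 and its 24 hour arrays at 2013.4 and 2023.3, a log2 fold change of -0.66 ± 0.06 (adjusted p = 2.54e-05), and the call held in every alternative run. Axon guidance genes had 2 of 38 higher and 0 lower (5.26%, near the 5.5% of all genes). Their median was 0.16, with 35 of 38 above 0. PLXNA1, a semaphorin receptor, read 616.2 to 673.8 against 879.1 and 892.1 (0.44 ± 0.05, adjusted p = 0.000406), but the mean of all its probe sets gave 0.07 and did not pass. SEMA4C, a semaphorin, gave 0.26 ± 0.07 (adjusted p = 0.0495) and lost its call without either 24 hour array.

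Among cell identity lists the called share was 0 for noradrenergic identity and 11.8% for mesenchymal state, against 5.5% of all genes. Noradrenergic identity had 0 of 22 called, with a median of 0.06, CHGA at 0.22 ± 0.08 (adjusted p = 0.127) and ISL1 at 0.12 ± 0.06. Mesenchymal state had 1 higher and 1 lower of 17. SNAI2, a repressor of epithelial genes, read 482.7 and 516.0 without virus, 514.9, 621.7 and 669.2 with the control virus and 371.4 and 345.9 at 24 hours (-0.61 ± 0.11, adjusted p = 0.00554). COL1A1 was higher, at 407.4 and 418.3 against 292.2 to 354.1 (0.36 ± 0.07, adjusted p = 0.0125), and both calls were lost without array A and without array B.

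COL1A1 is also the brightest of the 6 fibroblast markers, whose summed signal was 417.7 to 486.6 on the references and 565.1 and 561.5 at 24 hours; COL1A2, DCN and LUM were under the dim filter. The part of other cells in this value was not tested.

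The ID and neurogenic bHLH list had 0 of 12 called, against 5.5% of all genes. Here the outcome turned on how the references were grouped and on which arrays gave the spread. ID3, an inhibitor of bHLH factors, read 311.3 and 326.0 without virus, 329.1, 248.2 and 163.3 with the control virus at 24, 48 and 72 hours, and 161.6 and 148.0 at 24 hours of the MYCN hairpin. The control virus array of 72 hours was nearly as low as the 24 hour arrays. Against all 5 references the log2 fold change was -0.73 ± 0.20 (adjusted p = 0.0603), and without the control virus array of 72 hours it was -0.90 (adjusted p = 0.000302). In the fit of all 11 arrays in 7 groups, the differences between the control virus arrays did not enter the error. There ID3 gave -0.97 against no virus alone (adjusted p = 0.00331) and -0.57 against the 3 control virus arrays (adjusted p = 0.0297). Against the control virus array of 24 hours alone the value was -1.02. With all 5 references in that fit the adjusted p of ID3 was 0.00361.

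ID1 was low on the control virus array of 72 hours alone among the references, and its groups overlapped, with 1768.8 and 1826.6 without virus, 1897.8, 1868.4 and 1047.4 with the control virus, and 1255.5 and 1115.2 at 24 hours. It gave -0.47 ± 0.18 (adjusted p = 0.173) over all references and -0.63 without the control virus array of 72 hours (adjusted p = 0.000102). In the fit of all 11 arrays in 7 groups, the low control virus array of 72 hours did not add to the error. There the outcome for ID1 depended on the references compared. ID1 gave -0.60 against no virus alone (adjusted p = 0.0371), and against all references the adjusted p was 0.0347. Against the 3 control virus arrays it gave -0.38 and did not pass (adjusted p = 0.114). It did not pass against the control virus array of 24 hours alone (-0.67, adjusted p = 0.0804). Both genes were lower later, ID3 at 25.5 and 28.5 and ID1 at 264.7 and 230.0 at 72 hours.

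The machinery that handles a hairpin was called more often than most lists, 3 of 15 higher and 2 lower (33.3% of the list against 5.5% of all genes), with a median of 0.09. Beside DICER1, the silencing scaffold TNRC6B read 175.9 to 194.7 on the references and 261.7 and 254.1 at 24 hours (0.42 ± 0.07, adjusted p = 0.00236), and AGO4 gave 0.36 ± 0.09 (adjusted p = 0.0307). XPO5, which exports hairpin precursors from the nucleus, read 824.8 and 753.7 without virus, 790.8, 763.1 and 771.7 with the control virus and 520.6 and 529.0 at 24 hours. It fell by 0.56 ± 0.05 on the log2 scale (adjusted p = 5.05e-05), and the small RNA carrier AGO1 by 0.53 ± 0.07 (adjusted p = 0.000865). Both other XPO5 probe sets passed as well (-0.34 and -0.70), whereas the other 3 of AGO1 read -0.17, 0.04 and 0.01, and with all its probe sets averaged AGO1 gave -0.16 and did not pass.

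The control virus arrays of XPO5 and AGO1 stayed with the no virus arrays: between the control virus array of 24 hours and no virus, XPO5 differed by 0.00 and AGO1 by 0.01 on the log2 scale, while DICER1 differed by -0.38. Against that control array alone XPO5 gave -0.58 (adjusted p = 0.162) and AGO1 -0.49 (adjusted p = 0.114), in a fit that called 0.708% of genes. Without array A 3 of the 5 calls in this list remained, and likewise without array B.

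Interferon and virus response genes had 1 of 19 lower and 0 higher (5.26%, near the 5.5% of all genes), with a median of 0.00. That gene was IFIT5, which binds RNA ends. It read 499.1 and 500.6 without virus, 523.4, 529.0 and 466.7 with the control virus and 251.5 and 277.8 at 24 hours, without overlap (-0.89 ± 0.07, adjusted p = 7.47e-06). RIGI, a sensor of viral RNA, gave 0.35 ± 0.13 (adjusted p = 0.149).

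Respiratory chain genes had 4 of 45 lower and 0 higher (8.89%, against 5.5% of all genes), with a median of -0.01. Beside COX5B and MTLN, NDUFB2, a subunit of complex I, read 2383.7 to 2711.2 on the references and 1585.1 and 1553.5 at 24 hours (-0.69 ± 0.06, adjusted p = 3.29e-05), and NDUFS1, of the same complex, gave -0.31 ± 0.06. In glycolysis and the hypoxia response 2 of 31 were lower and 1 higher (9.68%). PFKM, a phosphofructokinase, read 795.5 to 873.8 against 476.6 and 466.7 (-0.78 ± 0.05, adjusted p = 5.32e-06).

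The enzymes that set the level of fructose 2,6-bisphosphate moved in both directions. PFKFB3 read 280.1 to 346.0 on the references and 149.2 and 151.9 at 24 hours (-0.94 ± 0.09, adjusted p = 3.4e-05). PFKFB4 was higher, at 88.4 and 96.3 against 47.4 to 66.3 (0.55 ± 0.12, adjusted p = 0.0159), and lost its call without array A and without array B.

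Cholesterol synthesis and uptake had 4 of 20 higher and 0 lower, 20% of the list against 5.5% of all genes, with a median of 0.17, the highest among lists with at least 10 members tested, and 17 of 20 above 0. INSIG1, the sterol-responsive brake on SREBP processing, read 540.4 and 527.7 without virus, 591.7, 554.6 and 682.1 with the control virus and 717.2 and 838.3 at 24 hours (0.42 ± 0.09, adjusted p = 0.022). MSMO1 (0.37 ± 0.07), ACAT2 (0.35 ± 0.08) and HSD17B7 (0.30 ± 0.08) were the other 3. The control virus array of 24 hours was itself above no virus for all 4, by 0.13 to 0.30 on the log2 scale, and against it alone none passed (0.18 to 0.38). Without array A, and without array B, 0 of the 4 remained called.

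Lysosome and autophagy genes had 2 of 34 lower and 0 higher (5.88%, near the 5.5% of all genes). GABARAP, which is joined to autophagosome membranes, read 2693.3 to 3154.9 on the references and 1962.2 and 1770.5 at 24 hours (-0.64 ± 0.07, adjusted p = 0.000171), and reached 404.3 and 421.1 at 72 hours. LAMP2, a lysosomal membrane protein, read 371.0 to 415.8 against 217.5 and 268.0 (-0.66 ± 0.08, adjusted p = 0.000351).

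In lists of stress and death the called shares were 0 (p53 targets), 6.25% (integrated stress and unfolded protein response), 8.33% (immediate early genes) and 12.5% (BCL2 family). Over all genes tested the share was 5.5%. Of 25 p53 targets 0 were called (median -0.04), with TP53INP1 at 0.31 ± 0.11 (adjusted p = 0.149). The BCL2 family had 2 of 16 lower and 0 higher (12.5%, against 5.5% of all genes): MCL1, a short-lived survival protein (-0.35 ± 0.06, adjusted p = 0.00427), and BID (-0.23 ± 0.06), while the death activator BCL2L11 gave 0.22 ± 0.10 (adjusted p = 0.23). Immediate early genes had 1 higher of 24, JUND (0.27 ± 0.06), and 1 lower, MCL1. The integrated stress and unfolded protein responses had 1 higher of 32, the chaperone CALR (0.42 ± 0.05, adjusted p = 0.000415, with 1052.1 and 989.2 against 729.3 to 775.1), and 1 lower, PHGDH, the first enzyme of serine synthesis (-0.21 ± 0.05).

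Over all 11865 genes tested 652 were called (5.5%). Over all lists, 65 of the 730 distinct genes tested were called. Of these 30 remained called without array A, 28 without array B, and 13 in every alternative run. With all probe sets of a gene averaged 36 remained. Beside genes already named for this, the value shrank by over 1.5 times and did not pass for CDKN1C (0.31), CALR (0.17), DKK3 (0.19), PFKFB4 (0.28), RBL2 (0.22), AGO4 (0.22), ELAVL3, MAP2 and L1CAM (0.11, 0.11 and 0.09). The same was so of LTV1 (-0.22), WDR12 (-0.14), GMPS (-0.07), CCND3 (0.18) and JUND (0.12). LAMP2 (-0.35), NDUFB2 (-0.46) and PRDX3 (-0.31) shrank as much and still passed.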

How the data were processed

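RNA of the 7 arrays compared, and of the 4 later ones used for gene choice and description, was measured on Affymetrix arrays. The deposited values are the authors' linear intensity per probe set and array; MAS5 and GCOS are named in the submitters' processing notes, with no version, and other steps are not given in the sources used here. Names came from the platform's annotation, with symbols of 41037 probe sets updated. For each gene the probe set brightest on average over 11 arrays (log2) was used, and the dimmest 40 percent (mean signal under about 14.8) were left out. The 2 groups were fitted on log2(signal + 16) with limma 3.58.1 in R 4.3.3 (eBayes with trend, 5 residual and 6.91 median prior degrees of freedom, two-sided, Benjamini-Hochberg adjustment). The script was tested on simulated data.

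The comparison, the 32 gene lists and the genes named were chosen with earlier results of these data known. Named were every MYCN probe set, the 15 largest called rises and falls with both 24 hour arrays outside the reference range, all MYC network genes, and the members of each list with the smallest p, 4 at most. LTV1, MCM5, PLK1, RBL2, CELF3, L1CAM and AGO4, called members beyond these, were named after their values were seen, so that each list's called genes are complete. Lists share genes. Alternatives changed the offset, normalization, filter, probe set rule, variance model, references, thresholds and arrays. Sequences are from RefSeq promoters.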

Additional observations from a re-analysis of the deposited data

Results flagged for a closer look

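Among 90 named genes past the threshold, the 5 reference arrays were searched for 1 array far from the other 4 (Dixon's test, critical value 0.71). It marked 6 genes, where chance marks about 1 in 20 groups, and no explanation was tested for any.

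On control virus arrays, E2F5 was high at 72 hours (296.7, others 269.6 to 276.5), PRPS2 was high at 72 hours (471.1, others 419.2 to 425.6) and TFB2M was high at 24 hours (811.6, others 774.8 to 778.2). RAP1A was low at 48 hours (1103.9, others 1253.9 to 1304.2), and so was PASK (107.3, others 120.9 to 123.6). CALR was low on the second no virus array (729.3, others 763.1 to 775.1). For these 6 genes the 24 hour arrays lay outside all 5 references, as they did for every called gene.

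Probe sets with no single gene symbol were outside every comparison above. Of 13522 such probe sets, 101 (0.747%) differed at 24 hours at a limma adjusted p under 0.05, 60 higher and 41 lower, with log2 fold changes from -1.28 to 1.15.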

How the results depend on the processing

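The count of 652 called genes stayed within 1.5 times under median scaling, quantile normalization, a 60 percent filter or none, an offset of 64 or 1, and the replicate block. It was 373 with the mean of all probe sets, 419 without the variance trend, 434 with all 11 arrays and the references as 1 group, and 356 with all 11 arrays in 7 groups. With fewer references it was 206 (no virus), 324 (control virus) and 84 (the control virus array of 24 hours). These counts came from the fit of all 11 arrays in 7 groups, where only the references compared were changed. In the main fit the count at an adjusted p under 0.01 was 279, and with a 2-fold minimum 16. Leaving out 1 array gave 228 to 779 calls. Letters A and B are shared between hours of the arrays labelled shMYCN, and a fit of all 11 arrays with the letter as a block gave 475 calls. A minus B differences of 24 hours correlated across genes at r = -0.05 with those of 48 hours and 0.04 with those of 72 hours. Those of 48 and 72 hours correlated at 0.1. Such values cannot tell whether arrays of 1 letter shared a culture or a processing step. At 24, 48 and 72 hours the GAPDH ratio was 1.017, 1.044 and 1.021 on arrays A and 0.993, 0.97 and 0.99 on arrays B. It was 1.039 and 0.997 without virus and 1.02 to 1.068 with the control virus. The source of this difference was not tested. The MYCN probe set 211377_x_at had a log2 fold change of -0.78 to -0.49 without 1 array, with the call lost in 6 of 7 such fits. No named gene reversed its sign while called. Of the 15 largest falls, 12 kept the call in all alternatives, and of the 15 rises, 0. Intensities close to background limit the dim genes, and 2 arrays at 24 hours limit every value.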

Other observations

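Falls next in size after the leading 15, chosen after their values were seen, included regulators of chromatin and transcription. MBD2, which reads methylated DNA, lay between 356.5 and 394.2 on the references and at 184.3 and 182.6 at 24 hours, a log2 fold change of -0.95 ± 0.06 (adjusted p = 3.26e-06). CDK19, a kinase of the Mediator complex, gave -0.91 ± 0.08, the chromatin reader PHF20 -0.88 ± 0.06 and the nuclear receptor NR2F6 -0.86 ± 0.12. ZFP36L1, which promotes decay of AU-rich mRNAs, gave -0.88 ± 0.09. CPE, which trims neuropeptide precursors, read 524.9 to 583.5 on the references and 259.0 and 295.6 at 24 hours (-0.96 ± 0.07, adjusted p = 5.32e-06). UBE4A, a ubiquitin chain factor, and DUSP16, a phosphatase of JNK and p38 kinases, gave -0.94 ± 0.08 and -0.92 ± 0.12.

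Rises next in size included ATCAY, a neuronal protein (0.54 ± 0.10), and the exchange factors ARHGEF3 (0.54 ± 0.13) and MCF2L (0.51 ± 0.09). SH3PXD2A, a scaffold of invasive cell protrusions, had the smallest adjusted p of these 20 rises (0.00027), at 0.50 ± 0.06, with 256.8 to 277.7 on the references and 388.4 and 380.0 at 24 hours. The histone methyltransferase KMT2D gave 0.50 ± 0.09.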
